A study of Mus musculus with 4 samples.

Results

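The desmosome genes described here are 10 genes that encode proteins of desmosomes, the adhesive junctions of epithelial cells. They comprise the desmogleins Dsg1a, Dsg1b, Dsg3 and Dsg4, the desmocollins Dsc1, Dsc2 and Dsc3, the plakin Dsp, the plakophilin Pkp1 and plakoglobin, Jup. They were chosen by gene symbol, among 19057 genes with a named probe on the array. Of the 10 genes, 9 had a named probe, with 15 probes in all, and no probe was named for Dsp. Expression was measured in punch biopsies of skin, 5 mm in diameter, from mice of the C57Black6/J background, on Illumina MouseWG-6 BeadChips. Wild-type mice gave the groups WT, which was unwounded, and WT_punched, taken on day 2 after punching. Mice without the receptor BLT2 gave BLT2KO and BLT2KO_punched in the same way, so there were 4 groups. The gene Ltb4r2 encodes BLT2, which keratinocytes express and which binds leukotriene B4 and the fatty acid 12-HHT. The labels do not give the age or sex of the mice or the way the receptor was deleted. Each group was 1 array of RNA pooled from 3 mice, so the spread between mice was not measured and no difference between groups was tested. In skin biopsies, fewer cells of a type and less RNA per cell cannot be told apart.

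In a desmosome, desmogleins and desmocollins are cadherins that span the membrane and bind those of the neighbouring cell. Their tails bind plakoglobin and plakophilins, and desmoplakin, the product of Dsp, links these to keratin filaments. In the epidermis, Dsg1 and Dsc1 predominate in the upper living layers, Dsg3 and Dsc3 in the lower layers, and Dsg4 belongs to the hair shaft and, in human skin, the uppermost epidermis. Dsg2 and Dsc2 are the widespread pair outside stratified epithelia. Loss of some of these proteins, or antibodies against desmoglein 1 and 3 in pemphigus, causes blistering or fragile skin. Against the labelled tissue, all 8 listed keratinocyte markers, among them Krt5, Krt14, Krt1 and Krt10, were detected on all 4 arrays.

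Of the genes detected on all 4 arrays, Jup was the one desmosome gene with a promoter entry in the RefSeq table used (assembly GRCm38.p6), and its promoter is shown for that reason. It lies on the minus strand at chr11:100397741-100398040 and covers 250 bases before the start site and 50 after it. Capitals mark the GC box, GGGCGG on either strand.
Jup promoter: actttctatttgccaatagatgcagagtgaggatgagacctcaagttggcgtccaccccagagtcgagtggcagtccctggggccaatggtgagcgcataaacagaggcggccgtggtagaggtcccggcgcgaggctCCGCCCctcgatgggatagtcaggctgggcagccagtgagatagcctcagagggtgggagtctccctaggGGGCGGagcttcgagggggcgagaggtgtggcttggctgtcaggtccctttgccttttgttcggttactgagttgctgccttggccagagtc
The Jup promoter had a GC content of 60.7%, against a median of 52.7% over all promoters in the table. It held a GC box at -112 and another at -42 from the start site, a motif searched for after the sequence had been seen, and 35.7% of 32851 promoters held at least 1. The other motifs searched for on both strands, none of which occurred in the Jup window, were AACNGGTT, bound by grainyhead-like factors, TGANTCA of AP-1, GGGNGTGG of Klf4 and the TATA box TATAAA. They occurred in 2.09%, 7.81%, 17.6% and 13.6% of promoters respectively. These matches describe letters only, and no binding was measured.

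Levels are given as log2 of background-corrected, quantile-normalized bead intensity, and a probe was called detected on an array when its deposited detection p-value was under 0.01. The lowest detected level was 5.23 for WT, 5.20 for BLT2KO and for WT_punched, and 5.10 for BLT2KO_punched. Dsg1b, Dsc1, Dsc3, Pkp1 and Jup were detected on all 4 arrays, each by 1 probe. Dsg1a was detected on 1 array, and Dsg3, Dsg4 and Dsc2 were detected on none. Over probes, 5 of the 15 were detected on all 4 arrays, 1 on some arrays and 9 on none. The 7 cadherin genes lie together on chromosome 18, Pkp1 on chromosome 1, Jup on chromosome 11 and Dsp on chromosome 13. Where a gene had several probes, the probe with the highest mean stood for it, and levels of different probes were not compared with each other.

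**Figure D1:**
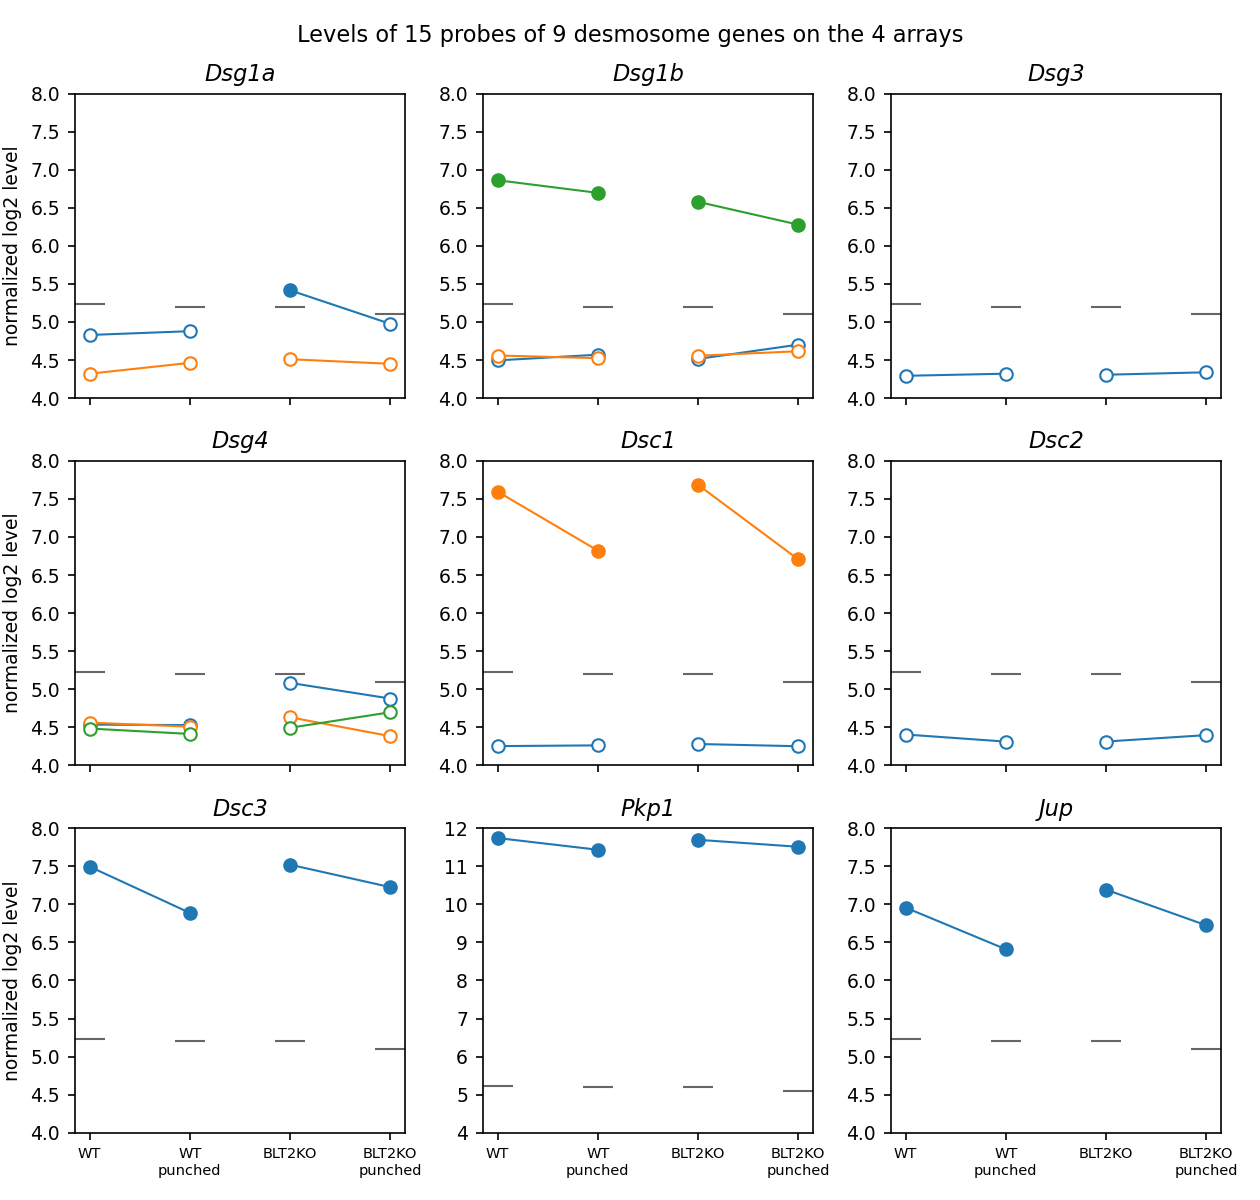
Normalized log2 level (vertical axis) of each of the 15 probes of 9 desmosome genes on the 4 arrays (horizontal axis), with 1 colour per probe of a gene. Filled points were detected, open points were not, short black lines mark the lowest detected level of each array, and Pkp1 has its own axis range. Dsc1, Dsc3, Jup and Pkp1 sit lower in both punched groups than in the unwounded group of the same genotype, and 9 probes have open points on every array.

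Among the desmogleins, Dsg1a and Dsg1b are mouse copies of the human gene DSG1. The detected Dsg1b probe read 6.86 in WT, 6.58 in BLT2KO, 6.70 in WT_punched and 6.28 in BLT2KO_punched. It was highest in unwounded wild-type skin, lowest in punched knockout skin, and lower in the knockout than in the wild type both before and after punching. The other probes of Dsg1b lay between 4.50 and 4.70 and were not detected. Dsg1a read 4.83 in WT, 5.42 in BLT2KO, 4.88 in WT_punched and 4.98 in BLT2KO_punched, and was detected in unwounded BLT2KO skin alone. Its second probe lay between 4.32 and 4.51 and was detected nowhere. Dsg1a, Dsg1b and Dsg1c are closely related copies, and whether a probe reads more than 1 of them was not tested.

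Dsg3, the desmoglein of the lower epidermis, read 4.29 in WT, 4.31 in BLT2KO, 4.32 in WT_punched and 4.34 in BLT2KO_punched. These values were under the detection limit of every array, so its level was not detectable here and no ratio was formed. For Dsg4, the desmoglein of the hair shaft, the brightest probe read 4.54, 5.08, 4.53 and 4.88 in the order WT, BLT2KO, WT_punched and BLT2KO_punched. The second Dsg4 probe read 4.56, 4.63, 4.51 and 4.38 in that order, and the third read 4.48, 4.49, 4.41 and 4.70. None of the 3 Dsg4 probes was detected on any array.

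Among the desmocollins, Dsc1, which marks the upper epidermal layers, had the widest range of the desmosome genes over the 4 arrays, 0.98 on the log2 scale. It read 7.60 in WT, 7.69 in BLT2KO, 6.82 in WT_punched and 6.71 in BLT2KO_punched. Both unwounded groups were high and both punched groups low. A second Dsc1 probe, of another transcript sequence, lay between 4.25 and 4.28 and was not detected. Dsc3, the desmocollin of the lower layers, read 7.49 in WT, 7.52 in BLT2KO, 6.89 in WT_punched and 7.23 in BLT2KO_punched. It was lowest in punched wild-type skin, and punched knockout skin lay between that and the unwounded groups. Dsc2, the widespread desmocollin, read 4.41, 4.31, 4.31 and 4.40 in the order WT, BLT2KO, WT_punched and BLT2KO_punched, and was detected on no array.

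Of the plaque proteins, plakoglobin binds cadherin tails in desmosomes and also in adherens junctions. Its gene Jup read 6.96 in WT, 7.19 in BLT2KO, 6.41 in WT_punched and 6.73 in BLT2KO_punched. The punched group was lower in each genotype, and the knockout was the higher genotype before and after punching. Plakophilin 1, which stabilises and clusters desmosomes in the epidermis, is encoded by Pkp1. Pkp1 read 11.74 in WT, 11.69 in BLT2KO, 11.43 in WT_punched and 11.51 in BLT2KO_punched, the narrowest range of the detected desmosome genes at 0.31. Dsp, the plakin that anchors keratin filaments, was not analysed here for want of a named probe.

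The first comparison asked how the desmosome genes stood in wild-type skin on day 2 after punching. All 5 detected genes were lower in WT_punched than in WT. Dsc1 was 1.71-fold lower (log2 ratio -0.77) and Dsc3 1.52-fold lower (-0.61). Jup was 1.46-fold lower (-0.55), Pkp1 1.24-fold lower (-0.31) and Dsg1b 1.12-fold lower (-0.17). The median log2 ratio of the 5 genes was -0.55, against 0.03 over 10346 genes measured on either array. Of the 5 genes, 2 were at least 1.5-fold lower, where 6.59% of all genes were, and 0 were at least 2-fold lower, where 1.49% of all genes were. None was at least 1.5-fold higher, where 7.5% of all genes were. A log2 ratio below 0 was found for 46.5% of all genes. In the order of all genes, 3.33% had a lower ratio than Dsc1, 6.15% a lower ratio than Dsc3, 7.64% a lower ratio than Jup, 17.8% a lower ratio than Pkp1 and 28.6% a lower ratio than Dsg1b.

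Technical error was judged from genes with several probes: the SD of a log2 ratio, from 2985 probe pairs of 1 gene each, was 0.28 in this comparison. The Dsc1 ratio was 2.79 times that SD, Dsc3 2.18 times and Jup 1.97 times, while the Pkp1 ratio was 1.11 times it and the Dsg1b ratio 0.597 times it, so that Dsg1b lay within it. This SD covers differences between probes on the same RNA, not differences between mice. The count of 2 genes at least 1.5-fold lower became 0 without background correction, 0 with median scaling, 0 with the deposited processed values, 1 with an offset of 50 and 1 with the mean of a gene's probes. With median scaling the Pkp1 ratio was 0.00 instead of -0.31, while the median of all genes moved to 0.25, so that Pkp1 lay 0.25 under that median (-0.25).

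In knockout skin the same genes were lower after punching as well, in BLT2KO_punched against BLT2KO. Dsc1 was 1.97-fold lower (log2 ratio -0.98), Jup 1.38-fold lower (-0.47), Dsg1b 1.23-fold lower (-0.30), Dsc3 1.23-fold lower (-0.29) and Pkp1 1.13-fold lower (-0.18). Dsg1a was at least 1.24-fold lower, since it was detected only in the unwounded array and the punched side was set at the lowest detected level. It entered this comparison through the group where it was high and its direction was fixed by that. Of the 6 genes, 1 was at least 1.5-fold lower, Dsc1, where 7.77% of 10401 genes were, and 0 were at least 2-fold lower, where 1.74% of genes were. None was at least 1.5-fold higher, where 8.32% of genes were. The median of the 6 was -0.31, and -0.30 without the Dsg1a bound, against 0.01 over all genes, of which 49% had a ratio below 0. The technical SD was 0.27, from 3100 probe pairs. Dsc1 lay at 3.58 times this SD and Jup at 1.71 times, and 1.88% of genes had a lower ratio than Dsc1. With the mean of its probes, the undetected one included, the Dsc1 ratio was -0.50 and the count became 0. With median scaling Pkp1 read 0.02 instead of -0.18, which was 0.15 under the median of all genes at that scaling (-0.15).

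**Figure D2:**
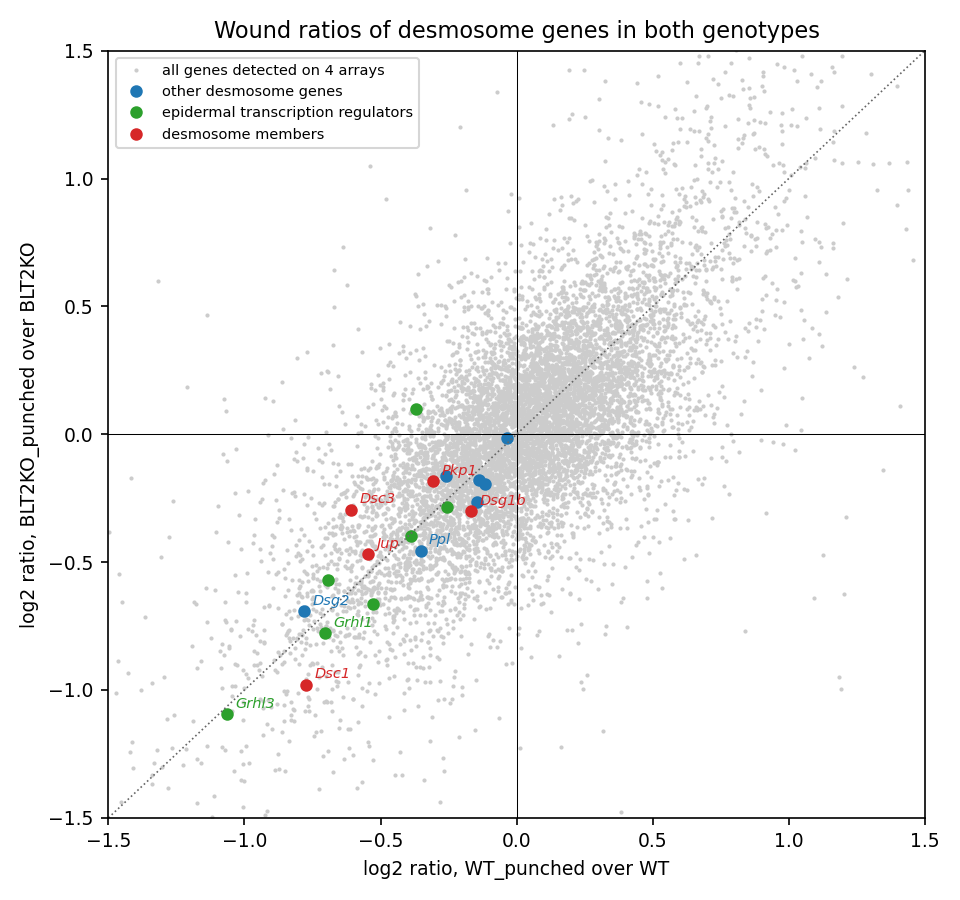
Log2 ratio of punched over unwounded skin in wild-type mice (horizontal axis) and in BLT2KO mice (vertical axis), 1 point per gene detected on all 4 arrays, with the line of equal ratios dotted and 174 genes beyond 1.5 on either axis not drawn. The 5 desmosome genes (red) lie below 0 on both axes, with Dsc1 the lowest of them on each, and Dsg2, Grhl1 and Grhl3 lie in the same quadrant. Perp and Kazn were not detected on all arrays and are not drawn.

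The wound comparisons of the 2 genotypes share no array, so the direction of each gene could be set side by side. They are not fully independent, because all 4 arrays were normalized together. Undetected probes were also brighter on both punched arrays (median 93.3 and 89.3) than on the unwounded WT and BLT2KO arrays (65.1 and 63.9). The 5 genes detected on all 4 arrays had normalized ratios below 0 in both genotypes, which held for 3252 of 9111 genes (35.7%). In the non-normalized intensities, Dsc1 alone was lower after punching in both genotypes, and Dsc3 in the wild type alone. Jup read 159.2 there in WT and 164.0 in WT_punched, and 189.2 in BLT2KO and 190.1 in BLT2KO_punched. Pkp1 and Dsg1b were also higher after punching there in both genotypes, as was Dsc3 in the knockout. These intensities were neither background-corrected nor scaled between arrays. The lower ratios of Jup, Pkp1, Dsg1b and, in the knockout, Dsc3 were seen only after such processing. Dsc1 was the lowest of the 5 in each genotype, and Jup had nearly the same ratio in each, -0.55 and -0.47. Dsc3 was the gene whose wound ratio differed most between genotypes, by 0.31 (-0.61 in the wild type and -0.29 in the knockout). The difference of wound ratios, knockout minus wild type, was 0.13 for Pkp1, 0.08 for Jup, -0.13 for Dsg1b and -0.21 for Dsc1. All 5 differences were smaller than 0.39, the technical SDs of the 2 wound comparisons combined as if independent. This value was not measured from probe pairs. The same difference can be formed from the 2 genotype comparisons, whose technical SDs were smaller (0.22 and 0.19). Whether the Dsc3 difference lay within technical error was therefore not settled. Of the 5, 0 differed by 1.5-fold or more in either direction, where 3.27% of 9111 genes were lower and 4.14% higher by that much in the knockout.

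**Figure D3:**
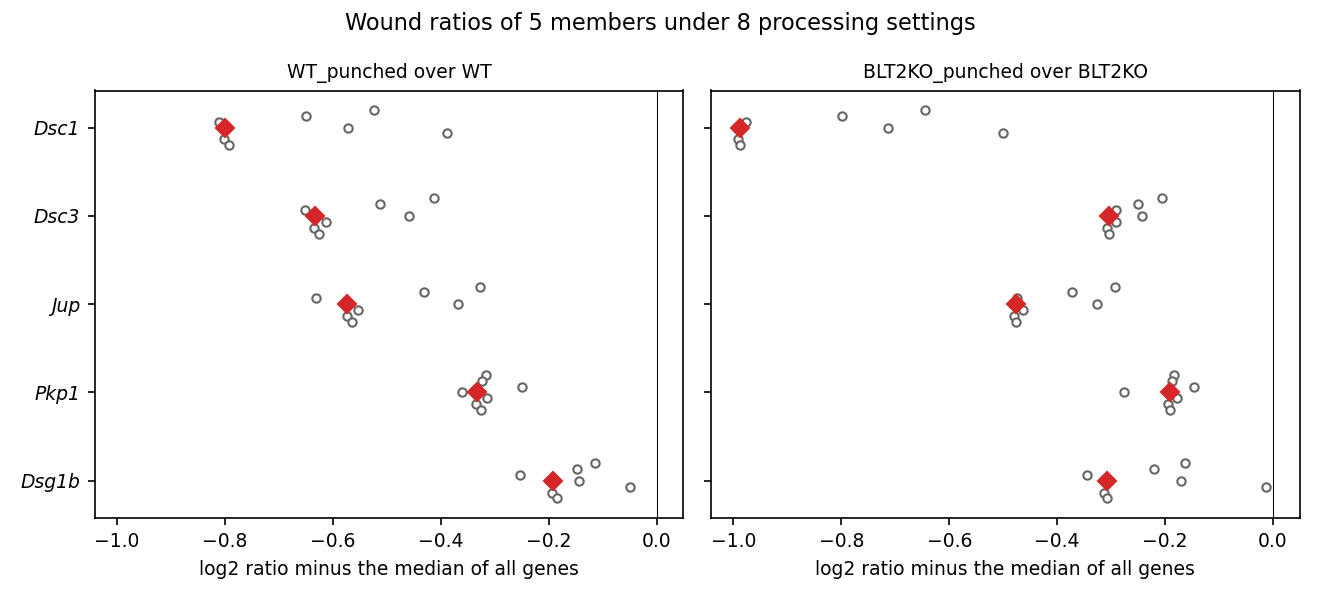
Log2 wound ratio of each desmosome gene minus the median of all genes (horizontal axis) in the wild type and in the knockout, with the processing used here as red diamonds and 7 alternatives as open circles. All 80 values lie below 0, from -0.99 for Dsc1 to -0.01 for Dsg1b in the knockout with the mean of probes. The alternatives that change only the detection filter could not alter the log2 ratios of these genes, only the median. The mean of probes could not alter those of Dsc3, Pkp1 and Jup, so the 80 values are not independent.

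Setting the genotypes side by side without a wound, desmosome genes differed little between BLT2KO and WT. Jup was 1.18-fold higher in BLT2KO (log2 ratio 0.24), Dsc1 1.06-fold higher (0.09) and Dsc3 1.02-fold higher (0.03). Pkp1 was 1.03-fold lower (-0.05) and Dsg1b 1.22-fold lower (-0.28). Dsg1a was at least 1.14-fold higher in BLT2KO, since WT lay under detection, and it entered through the group where it was high. None of the 6 was 1.5-fold apart, where 3.38% of 10206 genes were that much higher and 4.28% that much lower. A ratio below 0 was found for 2 of the 6, and for 52.2% of all genes. The technical SD was 0.22, and Dsg1b and Jup, at 1.31 and 1.09 times it, were the largest ratios against it. The Dsg1a value rested on the detection limit: with no filter and no floor its log2 ratio was 0.59, which made it the 1 gene at least 1.5-fold higher.

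In punched skin, BLT2KO_punched against WT_punched, Dsc3 was 1.26-fold higher in the knockout (log2 ratio 0.34) and Jup 1.24-fold higher (0.32). Dsg1b was 1.34-fold lower (-0.42), and 6.10% of genes had a lower ratio. Pkp1 was 1.06-fold higher (0.08) and Dsc1 1.08-fold lower (-0.11). None of the 5 was 1.5-fold apart, where 2.56% of 10360 genes were that much higher and 2.42% that much lower. A ratio below 0 was found for 2 of the 5, and for 55.5% of all genes. Against a technical SD of 0.19, Dsg1b lay at 2.21 times, Dsc3 at 1.79 times and Jup at 1.67 times. The Dsg1b ratio was -0.22 without background correction and -0.06 with the mean of its probes, of which 2 were undetected. Wound and genotype comparisons share arrays, so a high or low WT_punched value enters both.

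Further genes of the desmosome, 11 on the list used, were nearer to the median of all genes. Dsg1c and Pnn were not detected. In the wild type 7 of the 8 measured were lower after punching, with a median log2 ratio of -0.14, where 46.5% of all genes had a ratio below 0. In the knockout 8 of 9 were lower, with a median of -0.18, where 49% of all genes had a ratio below 0. Dsg2, the widespread desmoglein, read 7.73 in WT, 8.11 in BLT2KO, 6.94 in WT_punched and 7.42 in BLT2KO_punched. It was the one gene of this list at least 1.5-fold lower in either genotype, at log2 ratios of -0.78 and -0.69. With 6.59% and 7.77% of all genes that much lower, 1 gene in 8 or 9 was near the share over all genes. The other 3 Dsg2 probes were dimmer and each undetected on 1 or 2 arrays. In the wild type they read -0.73, -0.60 and -0.29, and in the knockout, in the same order, -0.83, -0.69 and 0.14. Perp, a membrane protein of epidermal desmosomes, stood on the other side: it read 5.29 in WT, 5.18 in BLT2KO, 5.58 in WT_punched and 6.03 in BLT2KO_punched. It was 1.22-fold higher after punching in the wild type and at least 1.78-fold higher in the knockout, where the unwounded array lay under detection.

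The plakins Ppl and Evpl, which also build the cornified envelope, had wound ratios of -0.35 and -0.14 in the wild type and of -0.45 and -0.18 in the knockout. Over its 3 detected probes, the Ppl wound ratio ran from -1.24 to -0.35 in the wild type and from -1.18 to -0.45 in the knockout. Cdsn, corneodesmosin of the outermost junctions, read -0.14 and -0.26. The plakophilins Pkp2, Pkp3 and Pkp4 lay between -0.26 and -0.02 over both genotypes by their brightest probes. In the wild type a second detected probe read 0.20 for Pkp2 and 0.02 for Pkp4, so the direction of these genes there depended on the probe. Between genotypes, 7 of the 7 genes of this list detected on both arrays were higher in BLT2KO than in WT (Ppl highest at 0.50), where 52.2% of all genes had a ratio below 0. In punched skin 8 of 8 were higher in BLT2KO_punched than in WT_punched by their brightest probes (Dsg2 at 0.47), where 55.5% of all genes had a ratio below 0. A second Pkp2 probe, detected on all arrays, read -0.06 in punched skin. Left out of these counts were Kazn in both comparisons and Perp in unwounded skin, which were detected on 1 side only, so that their direction was fixed. None of the list was 1.5-fold apart between genotypes. Of all genes, 3.38% were that much higher and 4.28% that much lower in unwounded skin, and 2.56% and 2.42% in punched skin.

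**Figure D4:**
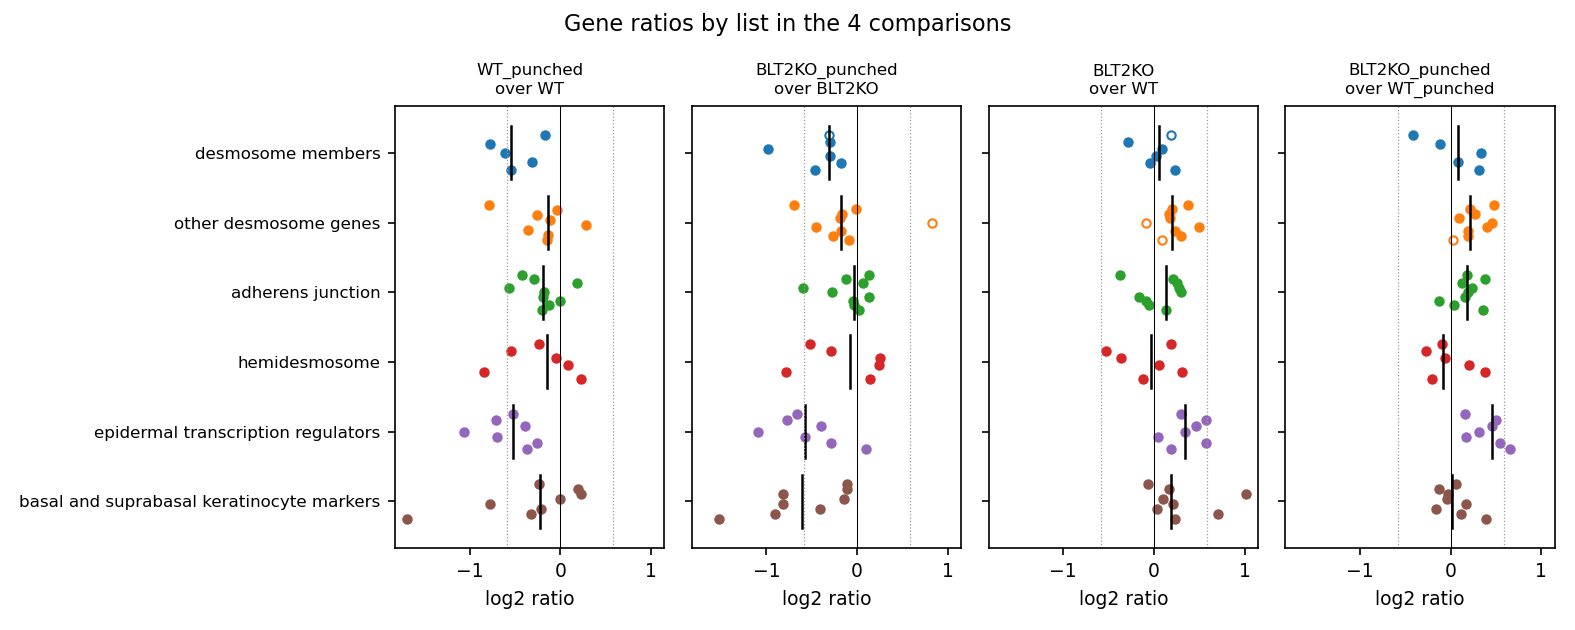
Log2 ratio of each measured gene (horizontal axis) in the 4 comparisons, by gene list, with a black bar at the median of each list, open circles for bounds and dotted lines at 1.5-fold. Over the 5 desmosome genes detected on all 4 arrays, the medians are -0.55 in the wild type and -0.30 in the knockout after punching, and 0.03 in unwounded and 0.08 in punched skin between genotypes; the bars of the knockout wound and the unwounded comparison also include the Dsg1a bound.

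Other junction genes of keratinocytes gave a smaller shift. The 9 adherens junction genes had a median log2 wound ratio of -0.19 in the wild type and -0.03 in the knockout, with Ctnnb1, beta-catenin and a close relative of Jup, lowest in each at -0.56 and -0.60. Over the 4 detected Ctnnb1 probes the ratio ran from -0.71 to -0.12 in the wild type and from -0.66 to 0.38 in the knockout, so its direction in the knockout depended on the probe. The 6 hemidesmosome genes, which attach basal cells to the basement membrane, had medians of -0.14 and -0.07. Dst, the plakin BPAG1, was the lowest of them in each genotype at -0.85 and -0.78, and Cd151 and Itgb4 were the highest at 0.23 and 0.26. No difference between these lists and the desmosome genes was tested.

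Among regulators of epidermal genes, all 7 were lower after punching in the wild type (median log2 ratio -0.53) and 6 of 7 in the knockout (median -0.57), where 46.5% and 49% of all genes had a ratio below 0. By the brightest probe of each gene, Grhl3, a grainyhead-like factor of the epidermal barrier, was lowest in each. It read 7.49 in WT, 7.83 in BLT2KO, 6.42 in WT_punched and 6.73 in BLT2KO_punched, which is 2.09-fold lower in the wild type and 2.13-fold lower in the knockout. A second Grhl3 probe detected on all arrays had log2 ratios of -1.28 and -0.51, and a dimmer Klf4 probe read -1.29 in the knockout, so neither the size nor the order held over probes. Between genotypes, all 7 were higher in the knockout, with medians of 0.34 in unwounded and 0.46 in punched skin, where 52.2% and 55.5% of all genes had a ratio below 0. Spink5, the inhibitor of the kallikreins that cut desmosomal cadherins during shedding, was lowest of the protease list in both genotypes, at log2 wound ratios of -0.68 and -1.32. Adam17, a protease that can shed desmogleins, was the highest of that list at 0.58 and 0.43. Of its 6 measured genes, 5 were lower after punching in the wild type and 4 in the knockout (medians -0.21 and -0.45). Of all genes, 46.5% and 49% had a ratio below 0. The kallikreins Klk5 and Klk7 were lower as well, at -0.39 and -0.39 in the wild type and -0.84 and -0.67 in the knockout. Klk6 read -0.04 and 0.28. No protease activity was measured.

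Markers of the cell types in the biopsies also differed between arrays. The 8 keratinocyte markers had a log2 summed level of 16.45 in WT, 16.62 in BLT2KO, 16.36 in WT_punched and 16.30 in BLT2KO_punched. Their median wound ratio was -0.22 in the wild type, where 5 of 8 were lower, and -0.61 in the knockout, where 8 of 8 were lower. Of all genes, 46.5% and 49% had a ratio below 0. Flg2, of the uppermost epidermis, had the lowest ratio in each at -1.69 and -1.53, and Krt5 of the basal layer stood at -0.23 and -0.11. All 7 neutrophil markers were higher after punching in each genotype, with medians of 1.08 and 2.59. Their log2 summed level was 13.81 in WT, 12.26 in BLT2KO, 14.71 in WT_punched and 14.55 in BLT2KO_punched. The 6 fibroblast markers had median wound ratios of -0.40 and -0.53, and the 7 muscle markers of 0.02 and -0.02. The muscle ratios ran from -1.04 to 0.59 in the wild type and from -1.32 to 0.86 in the knockout, with Mb lowest in each. Over the 4 adipocyte markers detected on all 4 arrays, the medians were 0.28 and -0.80. Fabp4, detected in WT_punched alone, was left out because its direction was fixed by that. All members of the keratinocyte, neutrophil, fibroblast and muscle lists were detected on all 4 arrays, as were 4 of the 6 adipocyte markers. The part of cell makeup in the desmosome ratios was not tested.

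Hair markers separated the genotypes on all arrays, which is given here because Dsg4 is a hair desmoglein. Of 14 hair shaft and inner root sheath markers, 13 had a named probe and 12 were measured. All 12 were at least 2-fold higher in BLT2KO than in WT (median log2 ratio 2.72) and in BLT2KO_punched than in WT_punched (median 5.09), where 1.09% and 1.1% of all genes were. Their log2 summed level was 13.19 in WT, 10.90 in WT_punched, 16.01 in BLT2KO and 15.99 in BLT2KO_punched. In the wild type all 12 were at least 2-fold lower after punching, where 1.49% of all genes were, while in the knockout the median wound ratio was -0.01. The marker Krt72 was undetected in WT_punched, so its direction was fixed in both comparisons with that array. No Dsg4 probe passed the detection threshold on any array. The brightest Dsg4 probe read 0.55 higher in BLT2KO than in WT and 0.35 higher in BLT2KO_punched than in WT_punched. Its detection p-values were 0.262 in WT, 0.0128 in BLT2KO, 0.315 in WT_punched and 0.0524 in BLT2KO_punched, so it came nearest to detection in BLT2KO and would pass there at the alternative threshold of 0.05. The other Dsg4 probes differed from WT to BLT2KO by 0.07 and 0.01. Hoxc13, a hair shaft regulator, was at least 2-fold higher in BLT2KO than in WT (log2 ratio 1.18).

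**Figure D5:**
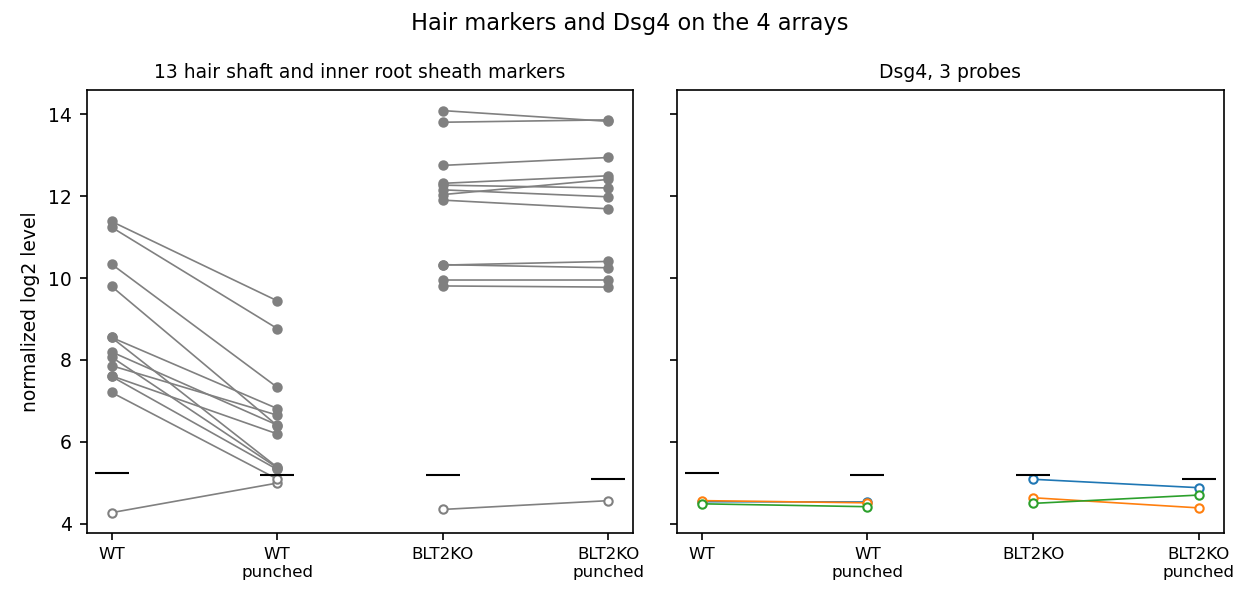
Normalized log2 level (vertical axis) of 13 hair markers (left) and of the 3 Dsg4 probes (right) on the 4 arrays, with open points for undetected values and short black lines at the lowest detected level. The hair markers detected in BLT2KO skin lie far above their wild-type levels, whereas all 12 Dsg4 points lie under the detection level.

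The genes with the profile most like that of Dsc1 over the 4 arrays, by Euclidean distance between log2 levels centred on their own mean, were Actn2, Sptssa, Fhl1, Trbv13-2 and Eif3c. The nearest, Actn2, lay at a distance of 0.04, with wound ratios of -0.77 and -0.94, and 68 of 8925 genes lay within 0.2. For the mean of the 5 detected desmosome genes, the nearest were Ech1, Mtmr12, H3f3b, Hoxb7 and Gtdc1, and 489 of 8925 genes lay within 0.2. Likeness over 4 arrays is a description of these arrays.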

How the data were processed

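RNA was amplified, biotin-labelled and hybridised, per the labels' protocols. The authors deposited non-normalized intensity values with a detection p-value beside each, per the file headers, for 45281 probes on each of 4 arrays. A second deposited table of intensity values equalled these times 1 constant per array (1.24 for WT, 1.12 for BLT2KO, 0.963 for WT_punched, 0.950 for BLT2KO_punched), found by comparing the tables. The median intensity of undetected probes was 65.1, 63.9, 93.3 and 89.3 in that order, so background correction bears on ratios of dim genes. Of all probes, 36.2% to 38% were detected per array.

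The intensities were corrected with neqc of limma 3.58.1 in R 4.3.3 (background from the detection p-values, offset 16, quantile normalization, log2), with later steps in Python 3.11.15, numpy 2.4.6, pandas 2.3.3 and matplotlib 3.10.9. Gene names came from the platform annotation: 34885 probes had 1 gene, 18 had several and 10378 were not listed, and the last 2 kinds stayed unnamed. Gene IDs of 34807 probes matched the RefSeq table. A gene entered a comparison when detected (p under 0.01) on at least 1 of its 2 arrays. An undetected side took the lowest detected level of its array, or its own value where that was higher, which makes the fold a bound ("at least"), and a bound on the wrong side gave no ratio. Calls were ratios of at least 1.5-fold and 2-fold. With 1 array of pooled RNA per group there was no test and no p-value between groups. The number of arrays limits the precision. For the technical SD, the log2 ratios of a pair of probes of the same gene were subtracted, and the SD of these differences was divided by √2. For the difference of wound ratios, the SDs of the 2 wound comparisons were combined instead, as the root of the sum of their squares. The steps were tested on simulated data, with the same background on every array and changes in bright probes only. Dim genes on arrays of unlike background were therefore not covered.

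The desmosome genes and the gene lists were chosen with earlier results of these data known. Every desmosome gene and every measured gene of the list of other desmosome genes could be named. Of other lists, genes at least 2-fold in size or highest or lowest in a comparison could be named, with the 5 genes nearest in profile. Not all of them were, and Dlx3, Krt6b and Cidec are examples left out. Grhl1 in the scatter plot, Klk5, Klk7 and the keratins named as detected markers fell outside the rule for other lists and were chosen after their values were seen. The 7 alternatives were no background correction, an offset of 50, median scaling, the deposited processed values, the mean of probes, detection p under 0.05, and no filter with no floor. Because Ltb4r2 had no named probe, the deletion was not checked here.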

Additional observations from a re-analysis of the deposited data

Results flagged for a closer look

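The genotype ratio of 2 desmosome genes pointed in opposite directions before and after punching. Dsc1 was higher in BLT2KO than in WT (log2 ratio 0.09) and lower in BLT2KO_punched than in WT_punched (-0.11). Pkp1 was lower in unwounded BLT2KO skin (-0.05) and higher in punched BLT2KO skin (0.08). The difference was not tested, since each group was 1 array, and all 4 ratios were smaller than the technical SD of their comparison (0.22 in unwounded and 0.19 in punched skin).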

How the results depend on the processing

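No paired analysis was possible because each group had 1 array. Over 7 alternatives, 167 of 175 counts and medians over the desmosome genes moved by less than the limit set for them (1.5 times for counts, the technical SD for medians), and no called ratio changed direction. The exceptions were these. The count at least 1.5-fold lower after punching in the wild type, 2, was 0 without background correction, 0 with median scaling, 0 with the deposited processed values, 1 with an offset of 50 and 1 with the mean of probes. In the knockout that count, 1, was 0 with the mean of probes. With no filter and no floor, the wild-type median wound ratio was -0.17 over 9 genes instead of -0.55, and 1 gene instead of 0, Dsg1a, was at least 1.5-fold higher in BLT2KO than in WT. The cause was not tested, except that the mean of probes and the missing filter bring in undetected probes. Over the alternatives, the wound ratio of Dsc1 ran from -0.77 to -0.38 in the wild type and from -0.98 to -0.50 in the knockout, Dsc3 from -0.61 to -0.40 and from -0.29 to -0.12, and Jup from -0.55 to -0.31 and from -0.47 to -0.23. Dsg1b came close to 0, from -0.17 to -0.00 and from -0.30 to -0.02, and Pkp1 crossed it, from -0.31 to 0.00 and from -0.18 to 0.02. Of the ratios of single genes over all comparisons and alternatives, 10 moved by more than the technical SD and 175 did not. Median scaling moved the median of all genes to 0.25 and 0.17 in the wound comparisons and to 0.12 between unwounded genotypes. In unwounded skin the median genotype ratio of the desmosome genes kept its sign in 6 of 7 alternatives, from -0.02 to 0.19. Signals near background limit Dsg1a, Dsg3, Dsg4 and Dsc2, for which no level was detectable on most arrays. For Jup, Pkp1, Dsg1b and, in the knockout, Dsc3, the non-normalized intensities were higher after punching, before any background correction or scaling. Over the 7 alternatives, the wound ratios of Jup and Dsg1b in both genotypes and of Dsc3 in the knockout stayed below 0. No alternative left the arrays unscaled.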
